A study of Mus musculus with 10 samples.

Results

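Motile cilia are hair-like cell projections that beat, and the axoneme is their microtubule core. The genes described here were those on the array whose symbols name axonemal dyneins and their assembly factors, radial spoke proteins, tektins, Spag, Ift or Cfap proteins, together with Fam183b, Rfx2, Rfx3, Mcidas, Ccno, Hydin, Pifo and Tppp3. They were taken by a rule on gene symbols. They numbered 87 genes with 142 probe sets, of 18194 genes and 45101 probe sets in all, and Mcidas was not analysed here because no probe set carried its symbol alone. Of the 87 genes, 71 passed the filter on low signal and were tested, and 16 did not.

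The RNA was that of sorted medullary thymic epithelial cells (mTECs). The mice, of C57BL/6 background, were 3 weeks old, and the cells were gated as CD45-, EpCAM+ and CD80hi, which selects the mature cells of the thymic medulla. There were 5 arrays of wild type (WT) cells, WT 1 to WT 5, and 5 of cells lacking the transcription factor Fezf2 (KO), KO 6 to KO 10. It is not stated in the labels which part of Fezf2 was deleted, in which cells, or whether each array came from a separate mouse, so p-values measure the spread between these arrays only. In sorted populations, fewer cells carrying a transcript and less RNA per cell cannot be told apart.

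As background, axonemal dyneins are motors built from heavy, intermediate and light chains. They sit on the outer microtubules as outer and inner arms, and bending depends on signals passed through radial spokes from the central pair of microtubules. Intraflagellar transport (IFT) carries building blocks along the cilium in motile cilia and in the single, non-beating primary cilium that many cells have. Multiciliated cells are made under Mcidas, Gmnc and Ccno, and the transcription factors Foxj1, Rfx2 and Rfx3 switch on axonemal genes. Mature mTECs express genes typical of many peripheral tissues, and their known subtypes include cells that resemble ciliated epithelium.

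Fezf2 signal was 5475 ± 350.0 (SD, n = 5) in WT and 15.04 ± 2.77 (n = 5) in KO cells, which checks the labels (limma, log2 change -7.47, adjusted p = 5.29e-15). The epithelial marker Epcam was between 6994 and 7985 on all 10 arrays, and Cd80, used in the sort, was 812 ± 139 in WT and 717 ± 102 in KO cells (adjusted p = 0.322). Of the 10 mTEC markers tested, 4 were called, 2 lower and 2 higher, where 29.2% of all genes were called. Tnfrsf11a, which encodes the receptor RANK, was higher in KO cells (log2 change 0.76, adjusted p = 4.64e-06), as was the keratin Krt5 (log2 change 0.71, adjusted p = 0.00263). The keratin Krt14 was lower (log2 change -0.42, adjusted p = 0.0436), a call lost without any of WT 3, WT 4, WT 5 or KO 6 to KO 9 (adjusted p 0.0623 to 0.108). Aire, the other regulator of tissue antigens in these cells, fell from 8791 ± 1156 to 6504 ± 1199 (log2 change -0.45, adjusted p = 0.0282), a call lost without WT 3, WT 4 or WT 5 (adjusted p 0.0613 to 0.0681). Arrays WT 1 and KO 6 had the highest 18S rRNA signal, 3445 and 3762, against 764.6 to 1774 on the other arrays. Xist, a transcript of female cells, was near background on WT 2, KO 6 and KO 8, between 21.1 and 29.97, and between 5304 and 6100 elsewhere.

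Cilia genes as a group were not called more often than other genes, but single genes of the dynein arms, microtubule lumen and IFT were lower in KO cells. The spoke gene Rsph3a was also called lower, but its value is uncertain, as given below. Of the 71 cilia genes tested, 10 were lower and 3 higher in KO than in WT cells (limma, adjusted p under 0.05). The 10 lower genes were Dnah9, Rsph3a, Cfap53, Ift57, Dnah8, Fam183b, Dnah2, Tppp3, Ift172 and Dnah11, and the 3 higher genes were Cfap45, Spag9 and Ift20. The 13 calls were 18.3% of the cilia genes tested, against 29.2% of all 14087 genes. In the lower direction the shares were 14.1% and 16.2%, and over all genes 13.0% were called higher. Every KO value lay below every WT value for 8 cilia genes and above for 2, together 14.1%, where 22.1% of all genes did so, 12.0% below and 10.1% above. Fitted changes were negative for 49 of the 71 (69.0%) and for 55.0% of all genes, and their median log2 change was -0.09 against -0.03. Within a group, the cilia genes varied between arrays by a median SD of 0.166 on the log2 scale, against 0.137 for all genes.

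**Figure D1:**
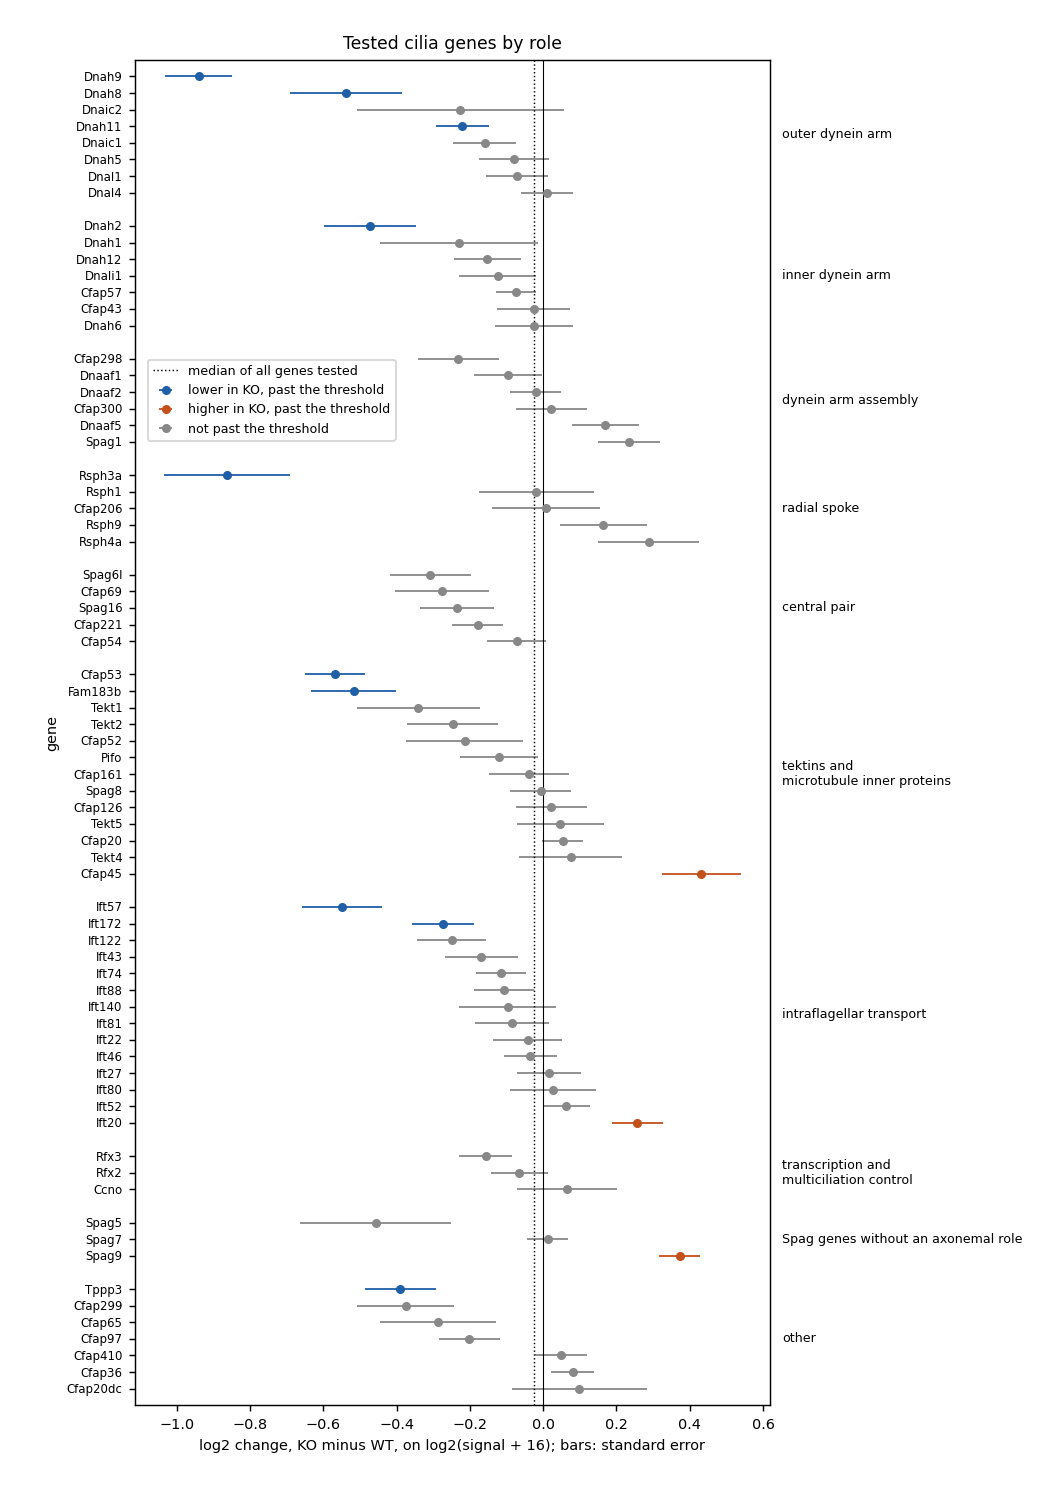
Fitted log2 change (KO minus WT, on log2(signal + 16)) of the 71 tested cilia genes, grouped by role, with standard errors as bars and the median of all genes tested (-0.03) as a dotted line. Points past the threshold are coloured: 10 genes lie to the left, with Dnah9 farthest at -0.94, and 3 lie to the right, with Cfap45 farthest at 0.43.

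The start regions of these genes held the short sequence read by RFX factors in a larger share than those of other genes, a description with no test. RefSeq promoters (GRCm38.p6, 250 bases before to 50 after the gene start) were at hand for 73 of the 87 genes. The RFX core GTTGCC, read on both strands, stood in 29 of the 73 (39.7%), against 14.1% of all 27025 genes in the table and 14.6% of the 11287 tested on the arrays. A pair of such cores at most 3 bases apart stood in 4 of the 73 (5.48%), Spag16, Cfap161, Cfap20dc and Cfap298, against 0.211% of all genes. The X-box, the longer inverted repeat that RFX proteins bind, was matched in 18 (24.7%) against 3.74%. It overlaps the core in many promoters, and its pattern was chosen after the data were seen. The forkhead motif TGTTTAC, of the kind read by Foxj1, stood in 4 (5.48%) against 4.05%. These are matches of letters, not sites shown to be bound.

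Sequences are shown for genes that were lower or higher in KO cells and for 2 with paired cores that were not past the threshold. Capitals mark the match: the RFX core in Fam183b and Ift172, the X-box in Ift57, Dnah2 and Cfap45, and the paired cores in Spag16 and Cfap298. Each run is 60 bases, 5′ to 3′ on the strand of the gene. The matches begin 16 bases before the gene start in Fam183b (chr11:58801944-58802003, minus strand), 60 before it in Ift57 (chr16:49699210-49699269, plus strand) and at the start itself in Ift172 (chr5:31291082-31291141, minus strand). They begin 86 bases before it in Dnah2 (chr11:69549158-69549217, minus strand) and 19 before it in Cfap45 (chr1:172521088-172521147, plus strand). Those of Spag16 (chr1:69826836-69826895, plus strand) and Cfap298 (chr16:90934882-90934941, minus strand) begin 111 and 69 bases before it.
Fam183b: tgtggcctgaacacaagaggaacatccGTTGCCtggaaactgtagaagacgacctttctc
Ift57: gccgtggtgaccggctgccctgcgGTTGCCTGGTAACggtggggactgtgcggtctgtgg
Ift172: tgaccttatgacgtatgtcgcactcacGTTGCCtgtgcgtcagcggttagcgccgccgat
Dnah2: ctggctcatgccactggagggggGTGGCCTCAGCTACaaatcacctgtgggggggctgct
Cfap45: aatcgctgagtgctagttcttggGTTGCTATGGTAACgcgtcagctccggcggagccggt
Spag16: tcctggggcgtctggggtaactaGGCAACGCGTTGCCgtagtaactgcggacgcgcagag
Cfap298: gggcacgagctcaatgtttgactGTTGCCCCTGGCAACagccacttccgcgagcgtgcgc

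The RFX core was not confined to the genes that changed. It stood in 3 of the 8 lower genes with a promoter (37.5%), in 0 of the 3 higher ones and in 21 of the 47 tested genes not past the threshold (44.7%). Ift57 and Fam183b each held it at a pair of places.

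**Figure D2:**
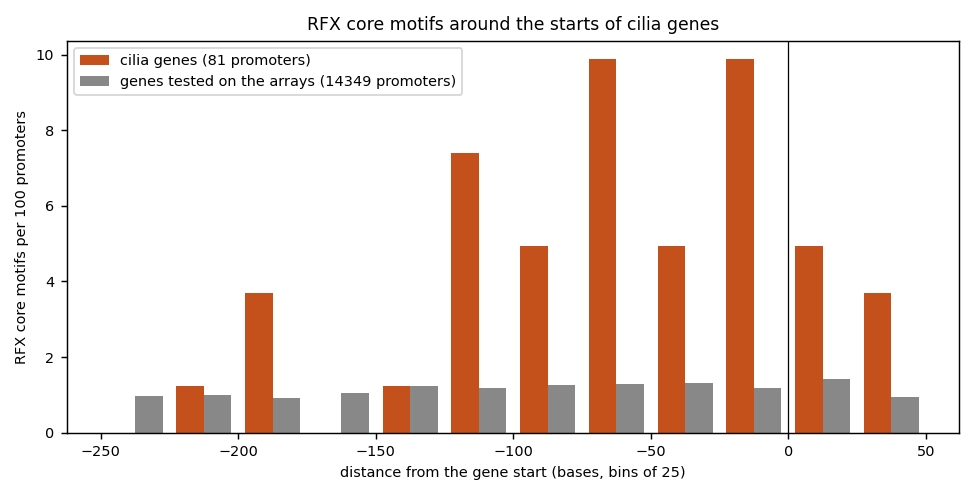
Number of RFX core motifs per 100 promoters, in bins of 25 bases by distance from the gene start, for the cilia genes (81 promoters of 73 genes) and the genes tested on the arrays (14349 promoters). The cilia genes peak at 9.88 per 100 promoters in the bins from -75 to -50 and from -25 to 0, where the tested genes stand at 1.28 and 1.18. Each of these bins holds 8 cores of cilia genes, and a gene such as Cfap298 can give more than 1. A core shared by overlapping promoters of a gene is counted for each, as for Tekt2 at -22 and -64.

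In the outer dynein arm, 3 of 8 tested genes fell and none rose (37.5% lower, against 16.2% of all genes), and the heavy chain Dnah9 had the largest log2 change of the cilia genes tested. The calls of the other two, Dnah8 and Dnah11, were lost when single arrays were left out. Dnah9 signal was 235, 253, 247, 239.7 and 232 on the WT arrays and 91.3, 129.8, 125, 135 and 113 on the KO arrays. All KO values were far below the WT values, and the lowest was on KO 6. The mean fell from 241 ± 8.36 to 119 ± 17.5 (SD, n = 5 each), a 2.03-fold difference in signal (log2 change -0.94, SE 0.09, adjusted p = 1.45e-05, exact two-sided permutation p = 0.00794, the smallest that 5 against 5 arrays can give). This rests on a single probe set, since the other of the gene had signals of 8.83 to 11.8 on all arrays and did not pass the filter. Dnah8, a heavy chain best known from the sperm tail, was 71.8, 71.7, 114, 126 and 138 in WT and 67.0, 61.4, 61.9, 61.5 and 71.3 in KO cells. WT 1 and WT 2 lay just above the highest KO array. The fall (104 ± 30.9 to 64.6 ± 4.41, log2 change -0.54, SE 0.15, adjusted p = 0.0195) lost the call without WT 4 (adjusted p = 0.0527). Dnah11, a heavy chain of airway and nodal cilia, was 68.4, 79.9, 64.9, 77.2 and 82.2 in WT and 61.6, 60.6, 61.3, 58.1 and 65.8 in KO cells. The groups overlapped, and its log2 change of -0.22 (SE 0.07, adjusted p = 0.0367) was no longer called when any of WT 2, WT 4, WT 5, KO 6, KO 7, KO 8 or KO 9 was left out (adjusted p 0.0508 to 0.0883).

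The remaining outer arm genes did not pass the threshold. Dnah5, the heavy chain that works alongside Dnah9 and Dnah11 in airway cilia, was near the filter limit on all arrays, between 23.3 and 30.8 in WT and between 22.6 and 38.3 in KO cells (log2 change -0.08, SE 0.10, adjusted p = 0.577). KO 6 was its highest KO array, the opposite of Dnah9. The intermediate chain Dnaic1 was 38.4 ± 6.05 in WT and 32.6 ± 4.04 in KO cells (log2 change -0.16, adjusted p = 0.191). It had a log2 difference of -0.03 on a dimmer probe set, at 30.0 in WT and 29.2 in KO cells. For its partner Dnaic2 the values were 374, 544, 331, 364 and 358 in WT and 129, 353, 402, 490.4 and 419 in KO cells. KO 6 was far below the other KO arrays, which overlapped the WT range, and the difference was within the spread (log2 change -0.23, SE 0.28, adjusted p = 0.591). The light chains Dnal1 and Dnal4 had log2 changes of -0.07 and 0.01.

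Among inner arm genes, all 7 tested had a negative estimate, against 55.0% of all genes. Of these, 1, Dnah2, passed the threshold (14.3% lower, against 16.2% of all genes). KO 6 was the lowest KO array for Dnah1, Dnah2, Dnah6, Dnah12, Dnali1 and Cfap43, but not for Cfap57. Dnah6 was 38.8 on KO 6 and 58.8 to 66.4 on the other KO arrays, against 54.4 to 65.0 in WT. Cfap43 was 11.4 on KO 6 and 18.5 to 23.5 on the other KO arrays, against 16.6 to 23.5 in WT. The negative estimates of Dnah6 and Cfap43 rested on KO 6, because the other KO arrays averaged above WT for both. Dnah2 encodes a heavy chain of the inner arm that has a pair of motors. Its signal was 309, 300.0, 269, 317 and 297 in WT and 157, 265, 239, 238 and 171 in KO cells. The groups did not overlap, although WT 3 and KO 7 were close. The mean fell from 298 ± 17.9 to 214 ± 46.9 (1.39-fold in signal, log2 change -0.47, SE 0.13, adjusted p = 0.0136). Dnah12 had the next smallest p, at 29.5 ± 1.91 in WT and 25.3 ± 5.72 in KO cells (log2 change -0.15, adjusted p = 0.235). The probe sets of Cfap57 differed, with a log2 change of -0.07 on the one tested and a log2 difference of -0.30 on another. That other one stood at 26.7 ± 3.61 in WT and 18.9 ± 3.88 in KO cells, with every KO value below every WT value. With the mean of its probe sets, Cfap57 was called. The median log2 change of the inner arm genes was -0.12, and that of the outer arm genes -0.19.

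Dynein arms are put together in the cytoplasm before they enter the cilium, and none of the 6 tested assembly genes passed the threshold, with 3 estimates above 0 and 3 below. Spag1, an assembly factor, stood at 103 ± 12.5 in WT and 124 ± 8.93 in KO cells (log2 change 0.23, SE 0.08, adjusted p = 0.0562). Cfap298, another, stood at 196 ± 27.5 and 165 ± 23.2 (log2 change -0.23, SE 0.11, adjusted p = 0.138). This is the gene whose paired RFX cores are shown above.

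Of 5 tested radial spoke genes, 1 fell and 0 rose (20% lower, against 16.2% of all genes). Rsph3a, a protein of the spoke stalk, had signals of 838, 1242, 1171, 1312 and 1665 in WT and 494, 584, 790.1, 805 and 691 in KO cells. The lowest WT array, WT 1, was just above the highest KO array. Its mean fell from 1246 ± 297 to 673 ± 134 (1.85-fold in signal, log2 change -0.86, SE 0.17, adjusted p = 0.00256). This value is uncertain, because Rsph3a has a near-identical copy, Rsph3b. The probe set annotated to both stood at 754 ± 79.0 in WT and 736 ± 46.7 in KO cells, a log2 difference of -0.03. Rsph1, a protein of the spoke head, was 256, 319.6, 178, 255 and 194 in WT and 165, 257, 249, 257 and 248 in KO cells. The groups overlapped fully (log2 change -0.02, SE 0.16, adjusted p = 0.946). Rsph4a, also of the spoke head, was 32.4 ± 8.33 in WT and 42.9 ± 10.01 in KO cells (log2 change 0.29, adjusted p = 0.139), with the lowest WT value on WT 1 and the highest KO value on KO 6.

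All 5 tested central pair genes had a negative estimate (against 55.0% of all genes), with a median log2 change of -0.23, and none passed the threshold. KO 6 was the lowest KO array for each of them. Spag6l came closest. It was 135, 147, 105, 120.2 and 95.6 in WT and 78.8, 90.9, 91.0, 106 and 101 in KO cells, and the groups overlapped (log2 change -0.31, SE 0.11, adjusted p = 0.0532). Its near-identical copy Spag6 did not pass the filter. Cfap221 stood at 25.4 ± 2.25 in WT and 20.6 ± 3.35 in KO cells (log2 change -0.18, adjusted p = 0.072). Hydin, a large protein of the central pair, exceeded the filter level on 1 array only and was not tested, with signals of 18.2 to 23.4 in WT and 16.2 to 20.8 in KO cells.

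Of 13 tested genes for tektins and proteins inside the outer microtubules, 2 fell and 1 rose. Their shares, 15.4% lower and 23.1% called, were near or below the 16.2% and 29.2% of all genes. Cfap53, also needed for left-right patterning, was 148, 142, 113, 142 and 122 in WT and 83.0, 83.6, 92.9, 78.2 and 84.9 in KO cells. The groups were well apart, and KO 6 was not an extreme value. The mean fell from 133 ± 15 to 84.5 ± 5.33 (1.58-fold in signal, log2 change -0.57, SE 0.08, adjusted p = 0.000285). Fam183b, a gene long used as a marker of ciliated cells, was 153, 173, 167, 135 and 119 in WT and 74.9, 99.6, 112, 109 and 103 in KO cells. The lowest WT array, WT 5, was close to the highest KO array, KO 8. Its mean fell from 149 ± 22.4 to 99.5 ± 14.5 (log2 change -0.52, SE 0.12, adjusted p = 0.00506). Cfap45 rose, from 43.6 ± 8.16 to 64.1 ± 8.24 (log2 change 0.43, SE 0.11, adjusted p = 0.00975). It was 42.3, 52.3, 30.7, 48.3 and 44.1 in WT and 50.4, 64.5, 71.6, 69.4 and 64.4 in KO cells, and only WT 2 and KO 6 overlapped. Tekt1, a filament protein bound to the microtubules, was 66.7, 66.7, 59.2, 72.7 and 56.8 in WT and 21.6, 52.5, 58.5, 56.4 and 57.5 in KO cells. KO 6 was far below all other arrays, and the difference was not past the threshold (log2 change -0.34, SE 0.17, adjusted p = 0.150). Pifo, a gene linked to ciliary disassembly and left-right patterning, was 146 ± 19.7 in WT and 133 ± 18.3 in KO cells (adjusted p = 0.438).

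IFT genes, which serve primary and motile cilia alike, were all measured above the filter, and 2 of 14 fell while 1 rose (14.3% lower and 21.4% called, against 16.2% and 29.2% of all genes). All 3 belong to IFT-B, the complex that moves cargo towards the tip. Ift57 was 453, 415, 517, 650.0 and 593 in WT and 339, 353, 365, 372 and 321 in KO cells. The KO arrays were close together and all below the WT arrays. The mean fell from 526 ± 97.0 to 350.0 ± 20.3 (1.5-fold in signal, log2 change -0.55, SE 0.11, adjusted p = 0.00253). Ift172, the largest subunit, was 309, 284, 322, 291 and 251 in WT and 207, 241, 261, 261 and 222 in KO cells. WT 5 overlapped the KO range, and the log2 change of -0.27 (SE 0.08, adjusted p = 0.0285) was lost when any of WT 1, WT 3, WT 4, KO 6, KO 7 or KO 10 was left out (adjusted p 0.0516 to 0.0675). Ift20, a small subunit that also works at the Golgi, was 471, 486, 429.9, 454 and 405 in WT and 603, 545, 515, 529.5 and 508 in KO cells. All KO values were above the WT values, and the mean rose from 449 ± 32.3 to 540.0 ± 37.95 (1.20-fold, log2 change 0.26, SE 0.07, adjusted p = 0.0143). The other 11 IFT genes had log2 changes between -0.25 for Ift122 (adjusted p = 0.0649) and 0.06 for Ift52, and the median of all 14 was -0.09.

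**Figure D3:**
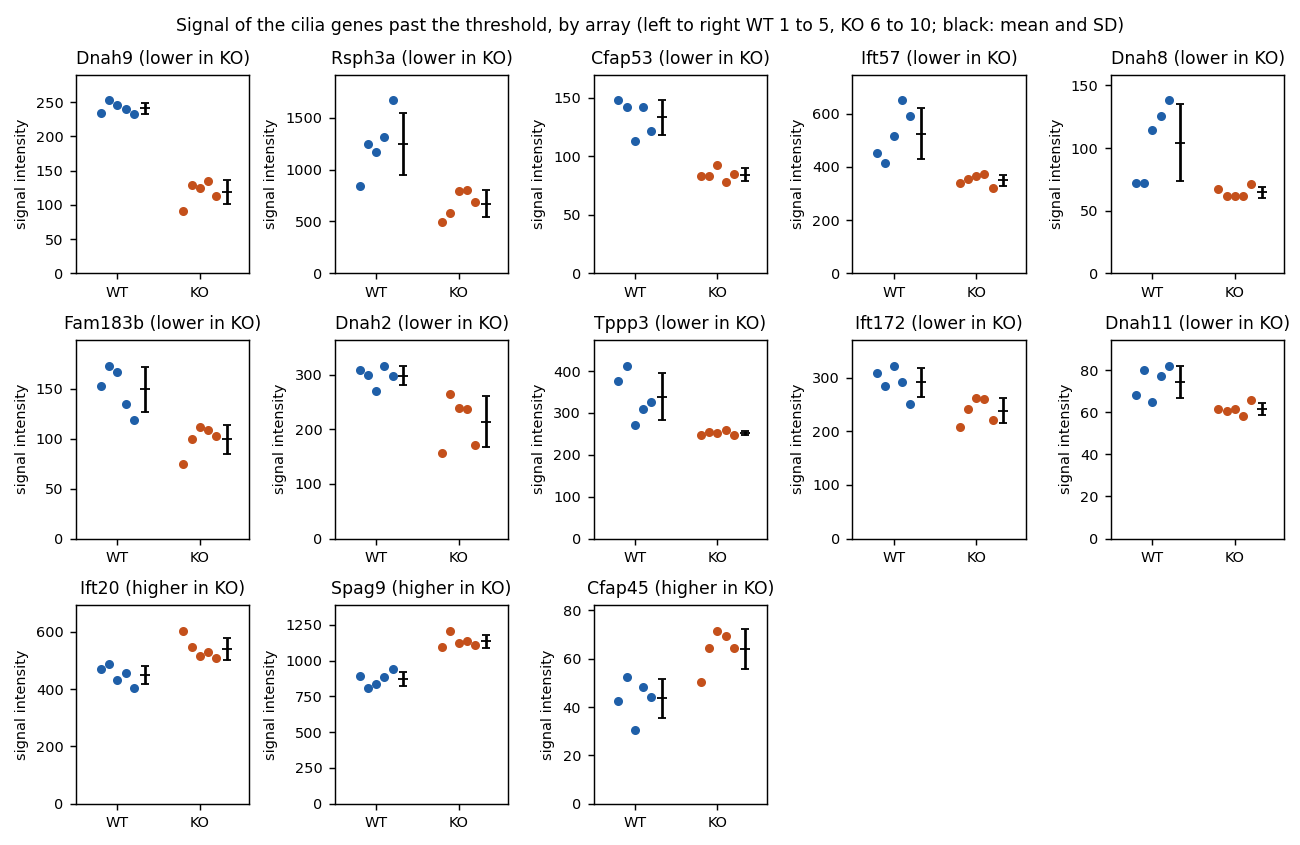
Signal intensity of the 13 cilia genes past the threshold on each array, WT 1 to WT 5 and KO 6 to KO 10 from left to right, with the mean and SD of 5 arrays in black and axes that start at 0. The WT and KO points are apart for 10 genes, and overlap for Dnah11, Ift172 and Cfap45.

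Of the regulators named for this programme, Foxj1, Ccno, Rfx2 and Rfx3 did not pass the threshold. Foxj1 had a mean of 209 ± 18.5 over WT and 209 ± 15.5 over KO arrays (SD), between 184.6 and 231.2 in WT and between 185.9 and 229.7 in KO cells. The estimate was close to 0, with a sign that differed between fits (SE 0.08, adjusted p = 0.986). Ccno, a cyclin needed to multiply centrioles, stood at 148 ± 22.2 and 157 ± 33.01 (log2 change 0.06, adjusted p = 0.760). Rfx2 stood at 57.3 ± 6.53 and 53.9 ± 4.80 (log2 change -0.07, adjusted p = 0.572). Rfx3 stood at 88.3 ± 6.33 and 77.6 ± 6.27 (log2 change -0.16, adjusted p = 0.128).

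Tppp3, a tubulin-binding protein and a marker of ciliated epithelium, was 376, 413, 271, 310.3 and 325 in WT and 248, 255, 251, 259 and 247 in KO cells. The KO arrays spanned a narrow range just under the lowest WT array, WT 3. The mean fell from 339 ± 55.7 to 252.3 ± 5.05 (1.34-fold in signal, log2 change -0.39, SE 0.10, adjusted p = 0.00920). Cfap299 stood at 38.4 ± 12.2 in WT and 25.2 ± 2.88 in KO cells (log2 change -0.38, adjusted p = 0.0510). A few Spag genes share the symbol without a part in the axoneme. Of these, Spag9, a scaffold of JNK signalling, was 894, 812, 839, 883 and 939 in WT and 1097, 1208, 1124, 1135 and 1109.7 in KO cells. All KO values were above the WT values (873 ± 49.5 to 1135 ± 43.2, 1.30-fold, log2 change 0.37, SE 0.06, adjusted p = 0.000408). Spag5, a protein of the mitotic spindle, was 132, 159, 151, 155 and 141 in WT and 47.4, 116, 100.1, 141 and 139 in KO cells, with KO 6 lowest (log2 change -0.46, SE 0.21, adjusted p = 0.117).

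Other genes of the cilium, outside the symbols above, were counted in lists. Of 44 tested genes with a part in motile cilia, 7 fell and 0 rose (15.9% lower, against 16.2% of all genes). Drc1, of the complex that regulates dynein, fell from 134 ± 19.3 to 84.5 ± 15.2 (log2 change -0.58, adjusted p = 0.00419). Ulk4 fell from 98.1 ± 24.1 to 54.5 ± 7.47 (log2 change -0.67, adjusted p = 0.00377). Cdhr4, Ak8, Capsl, Iqca and Mak were the others, with log2 changes from -0.53 to -0.37. Cdhr4 had a log2 change of -0.03 (adjusted p = 0.790) on its probe set without shared sequence, and Mak lost its call without WT 4 or KO 8 (adjusted p = 0.0569 and 0.0548). Of 45 tested genes of primary cilia and ciliary transport, 12 fell and 0 rose (26.7% lower), with a median log2 change of -0.14. Leaving out each array in turn gave 7 to 11 lower genes, with 7 when KO 6 or WT 4 was left out. Ahi1, of the transition zone at the base of the cilium, fell from 235 ± 14.9 to 168 ± 6.78 (log2 change -0.44, adjusted p = 0.000264). B9d1 and B9d2, also of the transition zone, had log2 changes of -0.41 and -0.37, and Kif3a, a subunit of the IFT motor kinesin, had -0.33. The difference between these lists and other genes was not tested.

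A list of regulators of cilium formation was drawn broadly, and also held other RFX family members such as Rfx5, and Tead2. Its genes were called in both directions, 3 lower and 2 higher of 20 tested. These shares, 15% lower and 25% called, were below the 16.2% and 29.2% of all genes. Myb, a transcription factor that acts early in multiciliated cells and in dividing cells, fell from 1333 ± 102 to 724 ± 148 (log2 change -0.89, adjusted p = 0.000396). Plk4, the kinase that starts centriole duplication, fell from 449 ± 26.9 to 291 ± 69.3 (log2 change -0.63, adjusted p = 0.00715). Rfx5, an RFX family member known for its control of MHC class II genes, fell from 917 ± 116 to 655 ± 130.3 (log2 change -0.49, adjusted p = 0.0214), a call lost without WT 4 or WT 5 (adjusted p = 0.0511 and 0.0547). E2f5, a cofactor in multiciliated cells, rose from 164 ± 11.4 to 200.2 ± 21.7 (log2 change 0.26, adjusted p = 0.0284), and lost the call without any of WT 2 to WT 5, KO 9 or KO 10 (adjusted p 0.0529 to 0.0700). Tead2 rose from 36.8 ± 2.89 to 55.5 ± 13.4 (log2 change 0.42, adjusted p = 0.0133).

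KO 6 stood apart in the axonemal genes. The mean log2 signal of the 44 tested genes of the motile axoneme was 6.64, 6.79, 6.63, 6.74 and 6.67 on WT 1 to WT 5, 6.31 on KO 6 and 6.60, 6.62, 6.64 and 6.61 on KO 7 to KO 10. KO 7, KO 8 and KO 10 lay just below the lowest WT array, WT 3, and KO 9 lay within the WT range. KO 6 was the lowest KO array for 32 of the 44 (72.7%) and for 8 of the 14 IFT genes (57.1%), against 40.6% of all genes. The median log2 change of the axonemal genes was -0.09 with all arrays, -0.04 without KO 6 and -0.02 without WT 1 and KO 6. Proliferation markers moved with this array: their mean log2 level was 8.23 to 8.52 in WT, 6.93 on KO 6, 7.61 on KO 8 and 8.11 to 8.22 on the other 3. Of these 9 markers, 1, Top2a, was called lower (11.1%, against 16.2% of all genes), and their median log2 change was -0.51. The log2 change of Top2a was -0.78 (adjusted p = 0.0464, and 0.0603 to 0.0957 without any 1 of the WT arrays or KO 8). On its probe set without shared sequence, Top2a had a log2 change of -0.12 (adjusted p = 0.313). The part of proliferation, array quality or cell composition in the cilia results was not tested. Without WT 1 and KO 6, 13 cilia genes were called, 12 of them shared with the fit on all arrays. The lower call of Ift172 was lost (adjusted p = 0.0819), and the assembly gene Dnaaf5 was gained as higher in KO cells.

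**Figure D4:**
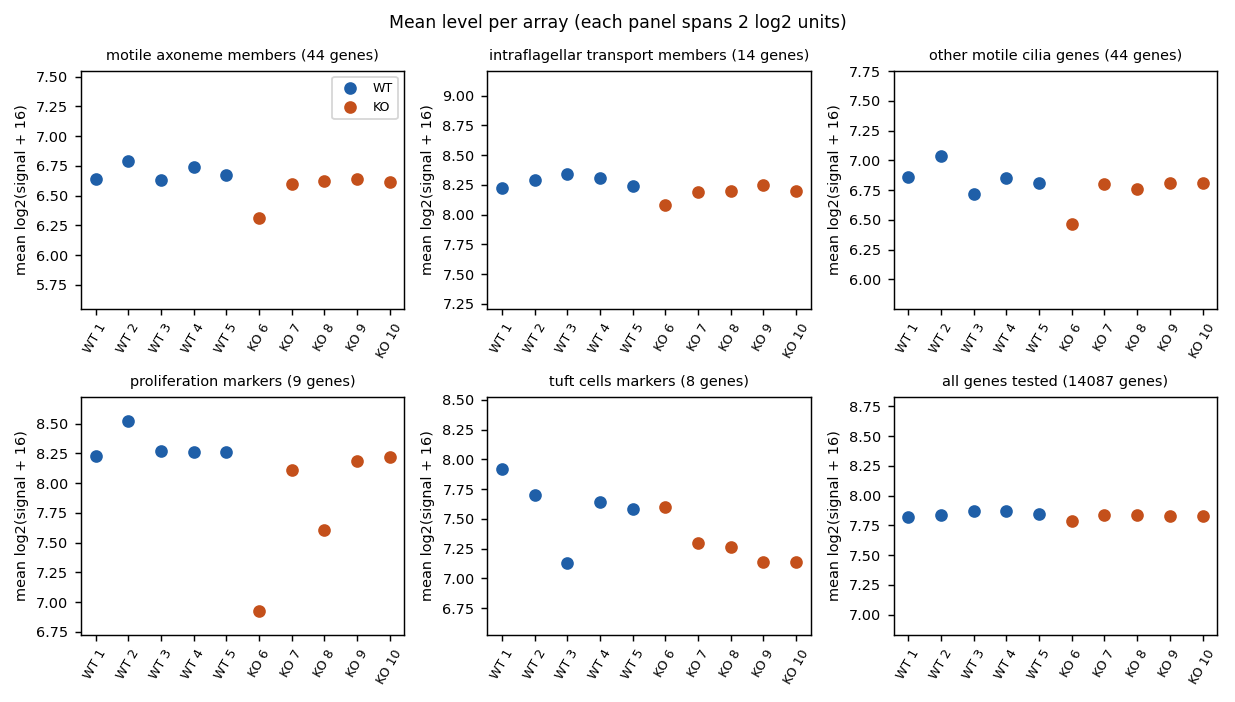
Mean log2(signal + 16) on each array for axonemal genes, IFT genes, other motile cilia genes, proliferation markers, tuft cell markers and all genes tested, with each panel spanning 2 log2 units. KO 6 is the lowest array for the axonemal genes (6.31), the IFT genes (8.08), the other motile cilia genes (6.47) and the proliferation markers (6.93).

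Markers of other cell types were read on the same arrays. Of 7 markers of motile ciliated cells, 3 were lower (42.9%, against 16.2% of all genes). These were Dnah9, Fam183b and Tppp3, which are also among the genes above, while Foxj1, Trp73, Ccno and Pifo were not past the threshold. The mean log2 level of the 7 was 7.35 to 7.65 in WT and 6.93 to 7.33 in KO cells, a mean that includes the 3 called genes. Axonemal genes are also expressed in male germ cells. Of 12 germ cell markers, 7 did not pass the filter, among them Tnp1, Tnp2, Akap4 and Odf1. Of the 5 tested, 3 were lower, Ddx4, Ldhc and Acrv1, where 16.2% of all genes were lower. This count rests on few genes. Acrv1 lost its call without any of WT 1, WT 2, WT 5 or KO 7 to KO 10 (adjusted p 0.0522 to 0.107). The mean level of those 5 was 5.93 to 6.06 in WT and 5.74 to 5.95 in KO cells. Tuft cell markers, another subtype of mTEC, ranged from 7.13 to 7.92 in WT and from 7.14 to 7.60 in KO cells. Of these 8 markers, 2 were lower, Il17rb and Sh2d6, where 16.2% of all genes were lower. Of 6 tested leukocyte markers, 1 was lower and 1 higher (16.7% lower and 33.3% called, against 16.2% and 29.2% of all genes). Ptprc, which encodes CD45, ranged from 210.3 to 298.2 in WT and from 155 to 278 in KO cells (adjusted p = 0.325). The part of these cell types in the cilia results was not tested.

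**Figure D5:**
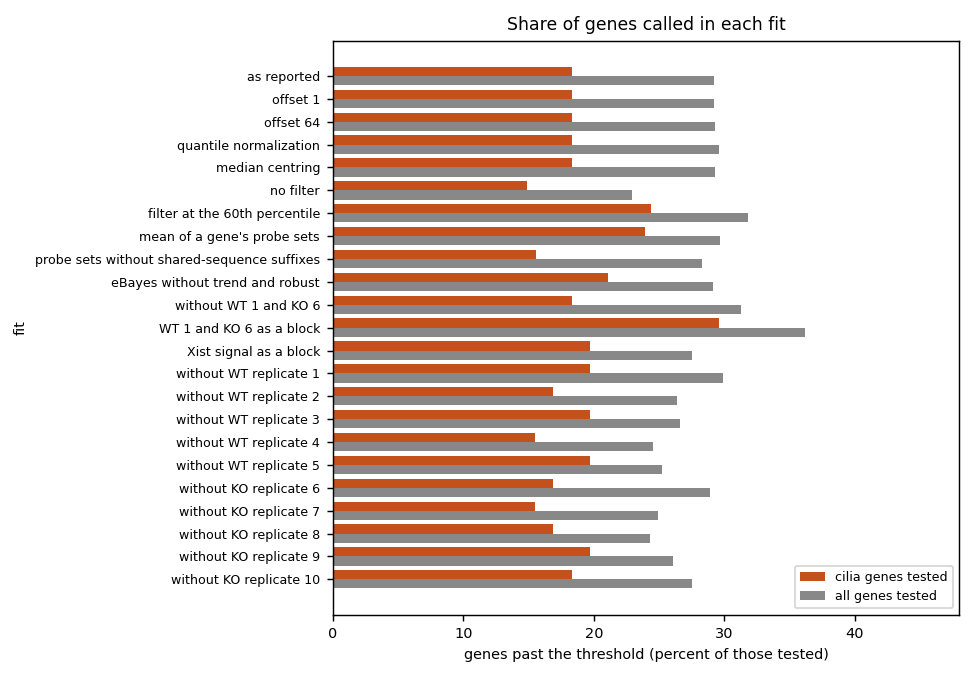
Percentage of genes past the threshold in each fit, for the cilia genes tested and for all genes tested. With all arrays the shares are 18.3% and 29.2%, and the bar of the cilia genes is the shorter of the pair in every fit shown.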

How the data were processed

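The deposited values were linear signal intensity per probe set from Affymetrix arrays. MAS5, with no version, is the tool named in the submitters' processing notes, with scaling and background steps not given in the sources used here. Probe sets were named from the platform annotation: 34958 of 45101 had 1 gene symbol, 932 several and 9211 none. Coordinates and promoter sequences came from RefSeq (GRCm38.p6). No build is stated for the array design.

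Probe sets above the 40th percentile of their own array on at least 5 of 10 arrays were retained. The brightest of these by mean signal stood for its gene, for 14087 genes in all. Values entered the analysis as log2(value + 16), without further normalization, in R 4.3.3 using limma 3.58.1 (lmFit and eBayes, trend and robust options on), KO minus WT, with Benjamini-Hochberg adjustment over all genes tested and a threshold of 0.05. Fold differences in signal are ratios of mean signals, while log2 changes are on the log2(value + 16) scale, which understates changes of dim genes. Means are given with SD over 5 arrays, and precision is limited by how many arrays there are.

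The cilia genes and all lists were chosen with earlier results of these data known, so no test was made of any list. Named were Fezf2 and Aire, every cilia gene past the threshold, up to 2 genes per role with the smallest p, and Foxj1, Mcidas, Ccno, Rfx2, Rfx3, Dnah5, Dnah9, Dnaic1, Rsph1, Tekt1, Hydin, Pifo, Tppp3 and Fam183b. Other genes were named after their values were seen. Alternatives were other offsets, normalizations, filters, probe set rules and variance models, WT 1 and KO 6 or the Xist signal as a block, WT 1 and KO 6 left out, and each array left out in turn.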

Additional observations from a re-analysis of the deposited data

Results flagged for a closer look

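In 6 of 64 groups of 5 arrays, for 32 named genes, 1 array lay far from the other 4 of its group. Chance gives about 1 in 20 for independent groups of normally distributed values. These groups were read on the same arrays and are not independent, so the count cannot be judged against that rate. The outlying array was KO 6 in 5 of the 6. Aire was 4368 on KO 6 against 6899 to 7203 on the other KO arrays. Tekt1 was 21.58 there against 52.5 to 58.53, and Rsph1 was 165.4 against 248.4 to 257.3. Dnah5 and Rsph4a went the other way, at 38.3 on KO 6 against 22.62 to 24.33, and at 60.37 against 36.05 to 40.82. Rsph4a was also 18.19 on WT 1 against 33.27 to 39.42 on the other WT arrays. None of the 4 cilia genes in this paragraph was past the threshold.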

How the results depend on the processing

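The number of cilia genes called lower kept within 1.5 times of 10 in every alternative except with WT 1 and KO 6 as a block, where 17 were lower and 21 called, 29.6% of the cilia genes against 36.2% of all genes. In all 22 alternatives the called share of the cilia genes was below that of all genes, with 10 to 21 called, and it was 15.5% to 19.7% with each array left out in turn. Of the single genes named, those with estimates near 0 changed sign. Foxj1 was 0.00199 with quantile normalization, 0.00926 with median centring, 0.0488 without WT 1 and KO 6, and -0.0434 to 0.0352 with each array left out. Rsph1 was 0.123 without WT 1 and KO 6 and -0.112 to 0.0949 with each array left out, Ccno was -0.0276 to 0.171 with each left out, and Rfx2 was 0.0282 with the mean of its probe sets. The cause was not tested. A filter at the 60th percentile left 45 cilia genes and took out Cfap45 and Dnah11. Without probe sets whose names end in _x_at, _s_at or _a_at, 64 remained. Dnah8, Fam183b and Ift20, whose probe sets in the main fit end in _a_at, were then not tested for lack of a kept probe set. No paired analysis was possible because the groups share no replicate numbers.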

Other observations

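Probe sets annotated to several genes were outside the counts. The probe set shared by Dnah7c and Dnah7b, inner arm heavy chains, stood at 107.4 ± 15.6 over WT and 107.1 ± 10.9 over KO arrays (SD). The one shared by Dnaaf2, Rpl36al and Rpl36a stood at 3927 ± 323 and 4135 ± 124. For Spag9, a second, dimmer probe set had a log2 difference of 0.41, in the same direction as the one tested.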
